A study of Homo sapiens with 24 samples.

Results

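Small nucleolar RNA (snoRNA) host genes carry snoRNAs in their introns, and the set described here holds the genes whose symbol is SNHG followed by a number, together with GAS5, ZFAS1 and EPB41L4A-AS1. Matching each row of the gene counts to its symbol gave 31 such genes of 58676 rows. In most comparisons 26 of them had enough counts to be tested, and SNHG22 was tested as well where libraries of days 1 to 3 entered. SNHG18, SNHG26, SNHG27 and SNHG28 never passed the main filter on low counts. None of them exceeded 0.3 CPM, the counts scaled to a common library size, in any library. All values come from HSJD-DIPG-007, a diffuse midline glioma (DMG) cell line grown as spheroids, whose genotype is given as H3F3A K27M, ACVR1 R206H and PIK3CA MIS, so both treatment groups and every library share these alleles. Cells received vehicle or LLY-283, an inhibitor of the arginine methyltransferase PRMT5, at the dose named GI(40), and the medium was renewed with a second dose after 5 days. Each arm held 12 libraries, with 3 at day 0, 3 at day 5, 2 at day 7 and 1 each at days 1, 2, 3 and 10. The study asked which transcripts change when PRMT5 is inhibited, and its text calls the libraries of one group technical repeats, so p-values measure only the spread between these libraries.

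The introns of a host transcript are cut out by splicing, and the snoRNAs inside them are trimmed and bound by a fixed set of proteins. Box C/D snoRNAs guide ribose methylation and box H/ACA snoRNAs guide pseudouridylation of ribosomal RNA, while small Cajal body RNAs (scaRNAs) guide the same marks on spliceosomal RNAs. The spliced exons of many hosts code for no known protein, often begin with a C followed by pyrimidines (a TOP-like start, which links a transcript to the growth state of the cell), and are broken down by nonsense-mediated decay. PRMT5 itself places symmetric dimethyl marks on arginines of RNA-binding proteins, among them the Sm proteins of the spliceosome.

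Library totals ran from 13835205 to 23190369 counts. Of 11 precursor and glioma identity markers of the line, such as OLIG2, 10 exceeded a mean of 1 CPM, and SOX10 did not, at 0.61 CPM or less in each library. The sum over the 11 was 7929 to 8103 CPM at day 0, 8229 to 8503 in vehicle at day 5, 8975 to 9047 in LLY-283 at day 5 and 7532 to 9113 over all libraries, whereas the sum over 5 microglia and blood markers was at most 1.89 CPM. Over 10 fibroblast markers, 8 of which exceeded 1 CPM, the sum was 141.3 to 151.4 CPM at day 0, 191.3 to 289.0 in vehicle at day 5 and 219.7 to 237.3 in LLY-283 at day 5. The 289.0 CPM was that of vehicle day 5 replicate 3. There COL1A1 measured 52.7 CPM, against 8.27 and 7.71 CPM in replicates 1 and 2, and COL1A2 36.1 CPM, against 1.02 and 0.64 CPM. These 2 genes also stood high in LLY-283 day 2 replicate 1 (32.4 and 16.6 CPM) and vehicle day 7 replicate 1 (30.4 and 16.9 CPM). THY1 was the largest part of the sum in each library. Over 5 neuron markers, 3 of which exceeded 1 CPM, the sum was 128.9 to 136.6 CPM at day 0. It was 105.3 to 111.3 in vehicle at day 5 and 154.7 to 169.7 in LLY-283 at day 5. SYT1 and GAD1 made up nearly all of it, the others being at 2.31 CPM or less in each library. Within the identity sum, PTPRZ1 measured 3163 to 3341 CPM in vehicle and 3965 to 4014 CPM in LLY-283 at day 5. NES went the other way, from 2315 to 2335 CPM to 1962 to 2061 CPM, and OLIG2 and SOX8 were also lower. No marker of these lists was at 0 in all libraries, and the part of these shifts in the values below was not tested. At day 7 the libraries labelled repeat 2 stood apart. On the genes called between arms at day 5, without the hosts, each library was placed as a percent of the distance from vehicle to LLY-283 at day 5, and repeats 1 and 2 of day 7 lay at -3.68% and 46.95% for vehicle and at 72.9% and -8.55% for LLY-283. The single vehicle library of day 10 lay at 61.1%, farther toward LLY-283 than vehicle repeat 2 of day 7, and that of LLY-283 at 96.8%. The libraries of day 0, both arms together, lay at 17.3% to 32.8%, so this position also differs between days within an arm. In bulk RNA, fewer cells that express a gene and less RNA per cell cannot be told apart.

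A TOP-like start is often found in such genes, so starts are shown for the hosts called between treatment groups at day 5. Those of ZFAS1 and EPB41L4A-AS1, which the set names, are added. Other hosts named below are not shown, among them SNHG8, SNHG11 and SNHG17, which had no run of 5 bases at the annotated start. Of the 31 genes, 27 had a RefSeq promoter window (GRCh38.p14), and SNHG6, SNHG9, SNHG15 and SNHG25 had none. Each line gives 10 bases before the annotated start, then 20 bases from it, with the longest run of C and T that begins with a C within 10 bases of the start in capitals.
SNHG19 (chr16:2155339-2155368, minus strand): ccgcccctgtCTTTTCggggtcgagtccga
SNHG32 (chr6:31834906-31834935, plus strand): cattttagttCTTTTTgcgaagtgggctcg
SNHG5 (chr6:85678714-85678743, minus strand): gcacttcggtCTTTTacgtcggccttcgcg
ZFAS1 (chr20:49278632-49278661, plus strand): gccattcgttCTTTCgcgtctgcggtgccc
SNHG1 (chr11:62855866-62855895, minus strand): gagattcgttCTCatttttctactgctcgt
SNHG3 (chr1:28505933-28505962, plus strand): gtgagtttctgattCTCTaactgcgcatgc
EPB41L4A-AS1 (chr5:112160516-112160545, plus strand): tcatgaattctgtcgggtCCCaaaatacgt

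In SNHG19, SNHG32, SNHG5 and ZFAS1, as in SNHG4, the run began at the annotated start itself and reached 5 bases or more. In SNHG12 and SNHG18 it began 1 base before the start and went on over it. Read from the start base, 7 of 27 hosts thus had a C followed by pyrimidines over 5 bases or more, against 4.07% of the 35114 windows in the table. Within 10 bases of the start, 16 of the 27 hosts had such a run against 33.5% of all windows. SNHG1 had a run of 3 bases at its start, and SNHG3 one of 4 bases beginning 4 bases after it. The RefSeq start of GAS5 lies upstream of the GENCODE gene, and its window is not shown. For SNHG3, whose window is shown, the RefSeq start (28505943) also lies upstream of the GENCODE start (28505980). That of SNHG14 (24823608) lies far upstream of its GENCODE start (24978583). GAS5, SNHG3 and SNHG14 are counted among the 27 hosts. The letters CACGTG, the E-box core read the same on both strands, stood in the 300-base windows of SNHG7 and SNHG30, 2 of 27, against 7.26% of all windows. These matches describe letters at an annotated start and not a site in use, and the shares of called genes were not tested between hosts with and without them.

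One snoRNA of each host called between the treatment groups at day 5 is given next, from GENCODE release 44 on GRCh38, to show what these transcripts carry. Capitals mark the C box and the D box of the C/D snoRNAs, and the ACA box near the end of SNORA73A, the U17 RNA, which acts in ribosomal RNA processing.
SNORA73A in SNHG3 (chr1:28507366-28507571, plus strand): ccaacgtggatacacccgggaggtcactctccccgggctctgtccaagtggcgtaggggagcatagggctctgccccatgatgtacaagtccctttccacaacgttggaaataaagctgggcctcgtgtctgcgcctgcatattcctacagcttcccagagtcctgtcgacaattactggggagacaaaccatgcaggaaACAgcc
SNORD60 in SNHG19 (chr16:2155023-2155105, minus strand): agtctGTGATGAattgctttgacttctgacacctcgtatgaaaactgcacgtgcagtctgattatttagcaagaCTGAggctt
SNORD48 in SNHG32 (chr6:31835263-31835326, plus strand): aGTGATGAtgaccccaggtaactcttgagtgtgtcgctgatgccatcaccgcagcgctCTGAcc
SNORD50B in SNHG5 (chr6:85677589-85677658, minus strand): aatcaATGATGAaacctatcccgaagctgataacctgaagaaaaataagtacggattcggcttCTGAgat
SNORD25 in SNHG1 (chr11:62855564-62855632, minus strand): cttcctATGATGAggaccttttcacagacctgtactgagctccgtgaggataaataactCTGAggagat

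By the symbols of RefSeq genes lying inside them, 12 of the 31 hosts carried C/D snoRNAs alone, 10 H/ACA snoRNAs alone, 3 both, 4 scaRNAs, and 2 had no guest with such a symbol. Of these 2, SNHG28 held a snoRNA listed as LOC124900450, and SNHG27 held none. Apart from SNHG27, the number of guests ran from 1, as in SNHG19 (SNORD60), SNHG8 (SNORA24) or EPB41L4A-AS1 (SNORA13), to 11 in GAS5 and 83 in SNHG14, the transcript of the imprinted SNORD115 and SNORD116 clusters. The guests themselves were hardly counted here, and the libraries were made from poly(A) RNA and mature snoRNAs carry no poly(A) tail. What was measured is poly(A) RNA of the hosts, estimated per gene. In SNHG1, SNHG8, SNHG15, SNHG19 and EPB41L4A-AS1 the GENCODE exons of all transcripts together cover the whole gene, introns included. Counts per gene therefore cannot tell spliced host RNA from host RNA that keeps an intron. The share of each was not tested.

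The hosts differed widely in level. The 5 highest by mean CPM were GAS5 (261.3), SNHG29 (217.0), SNHG16 (201.9), SNHG1 (152.1) and SNHG3 (116.3), which together held 54% of the summed CPM of the set. In all, 6 hosts had a mean of at least 100 CPM, 19 of at least 10 CPM, and 5 were under 1 CPM. Per kilobase of the median annotated transcript, GAS5 was first at 357.5 CPM per kb, followed by SNHG29 at 213.0, ZFAS1 at 133.4 and SNHG6 at 129.1. Per kilobase of all annotated exons together, SNHG19 was first at 64.5 CPM per kb and GAS5 second at 52.98, so this order depends on which length is used. Exons of 9 hosts overlap another gene on the same strand and those of 17 overlap one on the opposite strand. The paper names a directional library kit, but the strand setting of the counting is not given in the sources used here.

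Most hosts were lower at day 1 than at day 0. Of 27 hosts tested, 16 were lower at day 1 than at day 0 in both arms fitted together and 0 were higher, against 21.2% of all genes called (13.4% higher and 7.8% lower). The median log2 fold change of the 27 hosts was -0.24, against -0.01 over all genes tested. With 1 library per arm at day 1, the fit takes the spread at day 1 from the other libraries. Within vehicle alone 13 hosts were lower and 1 higher (16.3% of all genes called), and within LLY-283 alone 15 were lower and 0 higher (17.2%). These fits were added after the values had been seen, and each sets a lone day 1 library, assumed to vary like those of day 0, against 3 libraries.

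EPB41L4A-AS1, the host of SNORA13 that lies antisense to EPB41L4A, moved most. Its exons overlap those of EPB41L4A on the opposite strand, and the part of that gene in its counts was not tested. At day 0 it measured 31.3, 33.3 and 31.9 CPM in vehicle and 33.01, 32.2 and 31.9 CPM in the libraries of the LLY-283 arm, and at day 1 it measured 15.2 CPM in vehicle and 16.3 CPM in LLY-283. Both day 1 libraries lay far below all 6 of day 0, with a log2 fold change of -1.04 ± 0.06 (SE, adjusted p = 5.62e-11). SNHG3, the host of SNORA73A and SNORA73B, measured 139.0, 133.9 and 132.9 CPM in vehicle and 127.8, 132.9 and 132.1 CPM in LLY-283 at day 0, and 85.2 and 90.9 CPM at day 1. Its log2 fold change was -0.60 ± 0.04 (SE, adjusted p = 7.55e-10), and the days did not overlap. SNHG32, the host of SNORD48 and SNORD52, fell from 111.5, 119.5 and 125.5 CPM in vehicle and 127.6, 123.3 and 124.9 CPM in LLY-283 to 83.5 and 81.7 CPM, a log2 fold change of -0.56 ± 0.04 (SE, adjusted p = 4.47e-09).

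SNHG15, the host of SNORA9, measured 52.8, 54.8 and 53.03 CPM in vehicle and 52.8, 54.2 and 55.7 CPM in LLY-283 at day 0, then 35.8 and 37.5 CPM at day 1 (-0.55 ± 0.05 (SE, adjusted p = 1.42e-08) on the log2 scale). For SNHG11, the host of SNORA60 and SNORA71E, the values were 11.6, 12.3 and 10.6 CPM and 12.03, 11.6 and 11.6 CPM at day 0 and 6.92 and 6.84 CPM at day 1 (-0.75 ± 0.10 (SE, adjusted p = 3.93e-06)). In SNHG1, the host of SNORD22 and SNORD25 to SNORD31, the step was smaller, from 181.5, 181.5 and 189.9 CPM and 188.6, 176.3 and 187.2 CPM to 149.5 and 151.3 CPM (-0.29 ± 0.04 (SE, adjusted p = 4.82e-06)). In each of these 3 genes both day 1 libraries were below every day 0 library. The other 10 hosts that fell were SNHG17, SNHG4, SNHG8, ZFAS1, SNHG7, GAS5, SNHG12, SNHG29, SNHG6 and SNHG30, with log2 fold changes between -0.48 for SNHG7 and -0.21 for GAS5, the host of SNORD44, SNORD47 and SNORD74 to SNORD81. SNHG30 was called only by a small margin (adjusted p = 0.0097). The 11 hosts that were not called ran from -0.24 to 0.23, SNHG19 being the highest (adjusted p = 0.0174).

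**Figure D1:**
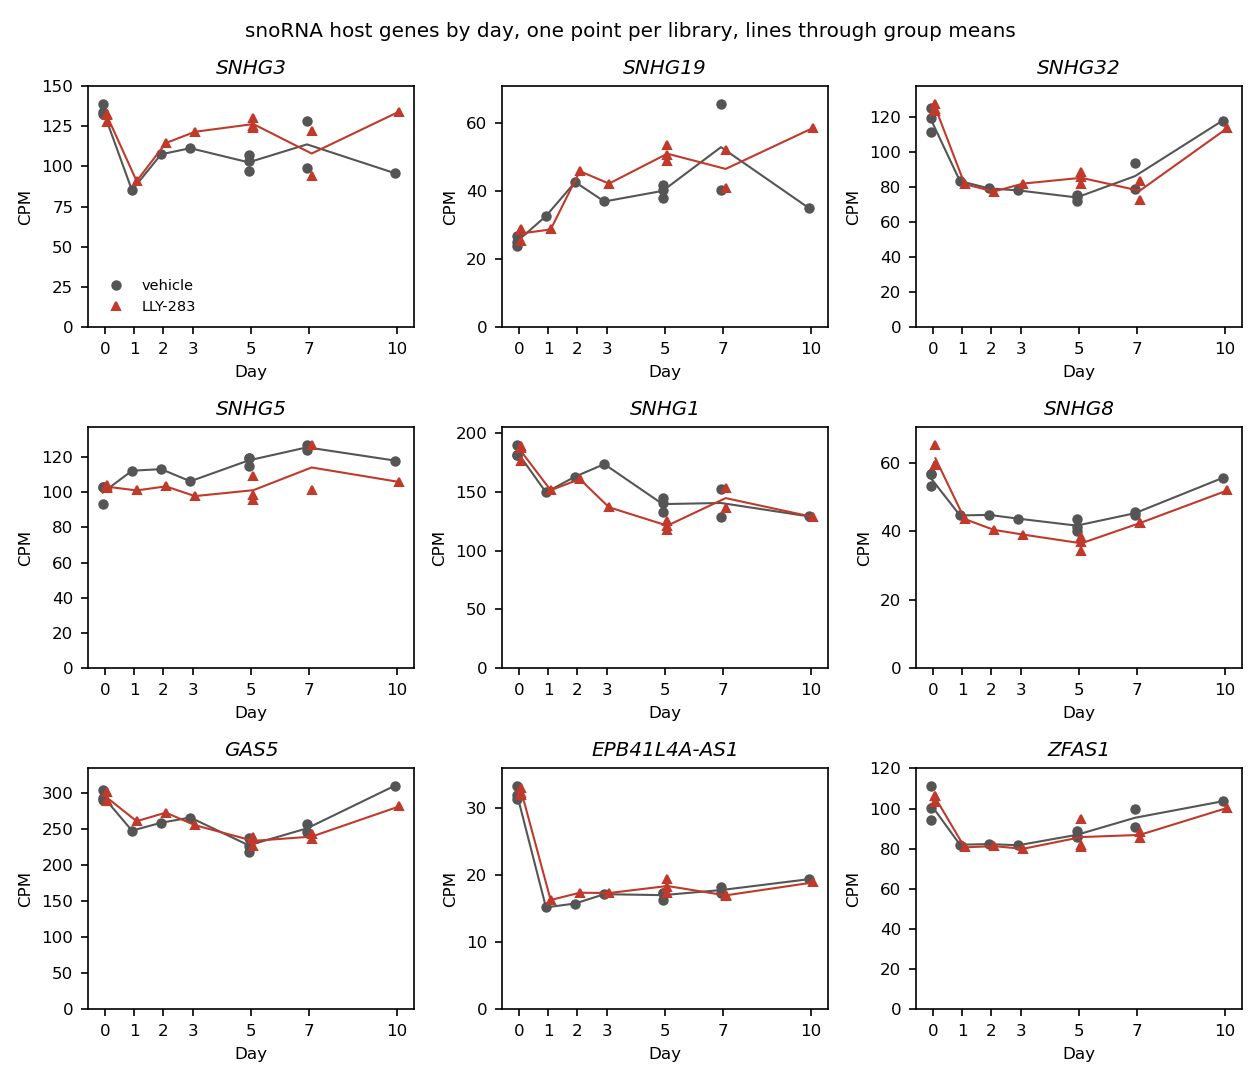
CPM (TMM-scaled, linear axis from 0) of 9 host genes against day, with 1 point per library, circles for vehicle, triangles for LLY-283 and lines through the group means. EPB41L4A-AS1, SNHG3 and SNHG32 are lower at day 1 than in all 6 day 0 libraries, and SNHG19 is higher at day 5 than at day 0 in both arms. At day 5 SNHG3, SNHG19 and SNHG32 are higher in LLY-283 than in vehicle.

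At day 5 most hosts were still below day 0 in both arms. In vehicle, 16 of 26 hosts were lower and 2 higher than at day 0, against 38.9% of all genes called (16.7% lower and 22.2% higher), and the median log2 fold change of the hosts was -0.27 against -0.02 over all genes. In LLY-283, 15 were lower and 1 higher, against 42.4% called (19.5% lower and 22.9% higher), with a median of -0.27 against 0.01. Long noncoding genes without a snoRNA had a median of -0.32 in vehicle, with 69 higher and 365 lower of 2432 tested, and of -0.06 in LLY-283, with 198 higher and 209 lower of 2514. Groups of 3 libraries did not overlap for 20 hosts in vehicle and 18 in LLY-283, where 57.1% and 57.6% of all genes showed such separation. These comparisons share their day 0 libraries with the day 1 comparison of the same arms, so the 3 sets of fold changes are given side by side and not as separate evidence.

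EPB41L4A-AS1 stayed low, at 16.3, 17.4 and 17.3 CPM in vehicle and 18.2, 17.4 and 19.4 CPM in LLY-283 at day 5. Both sets lay below all day 0 libraries, at 52.8% and 56.7% of the day 0 mean, with log2 fold changes of -0.94 ± 0.07 (SE, adjusted p = 2.34e-12) in vehicle and -0.80 ± 0.06 (SE, adjusted p = 8.10e-11) in LLY-283. SNHG32 measured 72.2, 74.6 and 75.6 CPM in vehicle and 81.99, 85.6 and 88.4 CPM in LLY-283 (-0.70 ± 0.04 (SE, adjusted p = 1.68e-13) and -0.53 ± 0.04 (SE, adjusted p = 2.28e-11) against day 0). SNHG15 measured 33.5, 34.6 and 35.6 CPM in vehicle and 29.97, 34.03 and 33.1 CPM in LLY-283 (-0.65 ± 0.05 (SE, adjusted p = 3.13e-11) and -0.72 ± 0.05 (SE, adjusted p = 3.44e-11)). Neither gene had a day 5 library as high as its lowest day 0 library.

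GAS5 was 226.3, 217.3 and 237.4 CPM in vehicle and 235.4, 225.8 and 238.2 CPM in LLY-283 at day 5, against 289.5, 292.6 and 303.0 and 288.8, 288.3 and 300.4 CPM at day 0 (-0.39 ± 0.04 (SE, adjusted p = 1.11e-09) in vehicle and -0.31 ± 0.03 (SE, adjusted p = 1.96e-08) in LLY-283). All 6 libraries of day 5 were lower than all 6 of day 0. SNHG1 was 133.0, 144.9 and 140.6 CPM in vehicle and 117.2, 120.8 and 125.5 CPM in LLY-283 (-0.42 ± 0.04 (SE, adjusted p = 7.46e-10) and -0.58 ± 0.04 (SE, adjusted p = 3.62e-12)). SNHG17, the host of SNORA71A to SNORA71D, went from 28.6, 32.5 and 28.97 and 31.04, 32.1 and 31.1 CPM at day 0 to 18.9, 20.4 and 19.4 and 18.3, 19.8 and 20.04 CPM at day 5, with -0.67 ± 0.06 (SE, adjusted p = 1.43e-09) in LLY-283 and -0.64 ± 0.07 (SE, adjusted p = 1.21e-08) in vehicle. For SNHG1 and SNHG17, too, no library of day 5 reached the range of day 0. The remaining hosts called lower in both arms, SNHG4, SNHG6, SNHG7, SNHG8, SNHG11, SNHG12, SNHG14, SNHG29 and ZFAS1, had log2 fold changes between -0.81 for SNHG11 and -0.17 for SNHG14 in vehicle and between -0.80 and -0.21 for the same genes in LLY-283.

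SNHG19, the host of SNORD60, went the other way. It measured 23.7, 24.9 and 26.7 CPM in vehicle and 28.7, 28.4 and 25.4 CPM in LLY-283 at day 0, then 37.8, 41.8 and 40.2 CPM and 53.4, 50.5 and 48.6 CPM at day 5. Every day 5 library was above every day 0 library, with log2 fold changes of 0.66 ± 0.06 (SE, adjusted p = 7.36e-10) in vehicle and 0.91 ± 0.05 (SE, adjusted p = 7.93e-13) in LLY-283. SNHG5, the host of SNORD50A and SNORD50B, rose in vehicle from 93.1, 103.1 and 103.1 CPM to 119.5, 119.7 and 115.0 CPM (0.23 ± 0.04 (SE, adjusted p = 4.49e-05)). In the LLY-283 arm it went from 103.0, 102.3 and 103.9 CPM to 109.4, 95.6 and 98.4 CPM, ranges that overlap (-0.01 ± 0.04 (SE, adjusted p = 0.843)). SNHG3 was -0.41 ± 0.04 in vehicle, a call (adjusted p = 3.02e-09), and -0.03 ± 0.04 in LLY-283 (adjusted p = 0.511), and these differences between arms are tested further on.

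**Figure D2:**
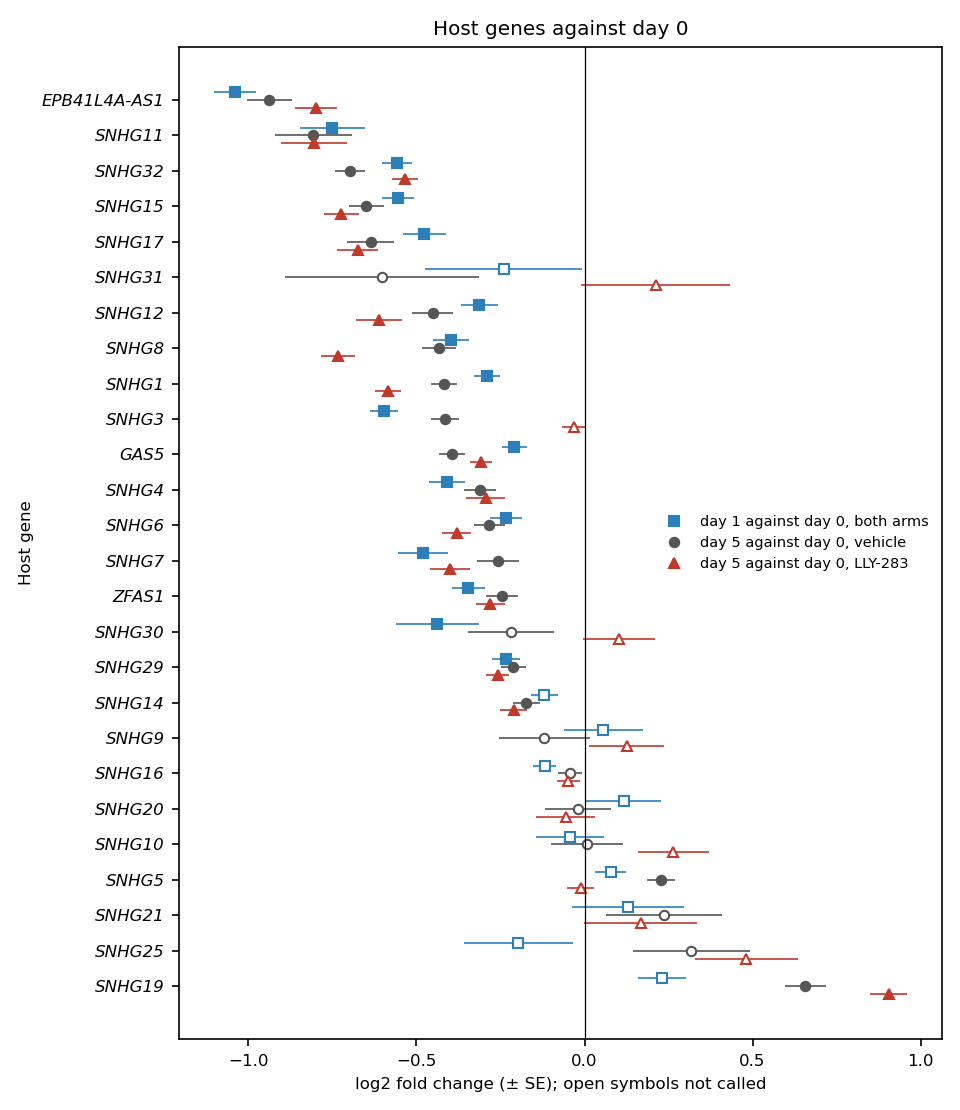
Log2 fold change against day 0 (x axis, ± SE) for the 26 tested host genes (y axis), with squares for day 1 in both arms, circles for day 5 in vehicle and triangles for day 5 in LLY-283, filled where the adjusted p was under 0.01. Filled symbols lie left of 0 except those of SNHG19 and SNHG5, and the comparisons share their day 0 libraries.

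Between treatment groups at day 5, 5 of 26 hosts were called, 3 higher and 2 lower in LLY-283, or 19.2% of those tested, against 26.1% of all genes called (12% higher and 14.1% lower). The share of hosts called was below that of all genes, a difference that was not tested, and their median log2 fold change was 0.01 against 0.02 over all genes tested. Groups did not overlap for 13 hosts, 6 higher and 7 lower, where 46.3% of all genes showed such separation. The changes were small, between -0.20 and 0.37 on the log2 scale for the called hosts.

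SNHG3 measured 97.3, 107.2 and 103.3 CPM in vehicle and 123.8, 125.4 and 130.1 CPM in LLY-283 at day 5. The groups did not overlap, and the log2 fold change was 0.33 ± 0.04 (SE, adjusted p = 5.66e-07). SNHG19 measured 37.8, 41.8 and 40.2 CPM in vehicle and 53.4, 50.5 and 48.6 CPM in LLY-283, again without overlap (0.37 ± 0.05 (SE, adjusted p = 3.16e-06)). SNHG32 stood at 72.2, 74.6 and 75.6 CPM in vehicle and 81.99, 85.6 and 88.4 CPM in LLY-283 (0.23 ± 0.05 (SE, adjusted p = 0.000169)). Each LLY-283 library of these 3 hosts was above each vehicle library, and leaving out any 1 of the 6 libraries kept all 3 calls. With all 24 libraries in a shared fit the 3 calls were lost (adjusted p = 0.0267 for SNHG3, 0.116 for SNHG19 and 0.03 for SNHG32).

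The 2 lower hosts were SNHG5 and SNHG1. SNHG5 measured 119.5, 119.7 and 115.0 CPM in vehicle and 109.4, 95.6 and 98.4 CPM in LLY-283 (-0.20 ± 0.04 (SE, adjusted p = 0.000447)), without overlap. SNHG1 measured 133.0, 144.9 and 140.6 CPM in vehicle and 117.2, 120.8 and 125.5 CPM in LLY-283 (-0.18 ± 0.04 (SE, adjusted p = 0.00139)), also without overlap. The call of SNHG5 was lost without the LLY-283 replicate 2 library (adjusted p = 0.0102), and that of SNHG1 without the vehicle replicate 2 library (adjusted p = 0.0137) or with scaling by library size alone (adjusted p = 0.0109). In the shared fit of 24 libraries both were lost (adjusted p = 0.0222 for SNHG5 and 0.0232 for SNHG1). At an adjusted p under 0.05, SNHG30, the host of SNORD7, was also higher (0.32 ± 0.12 (SE, adjusted p = 0.0395)) and SNHG8, the host of SNORA24, lower (-0.17 ± 0.06 (SE, adjusted p = 0.0222)), making 7 of 26 against 36.7% of all genes.

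**Figure D3:**
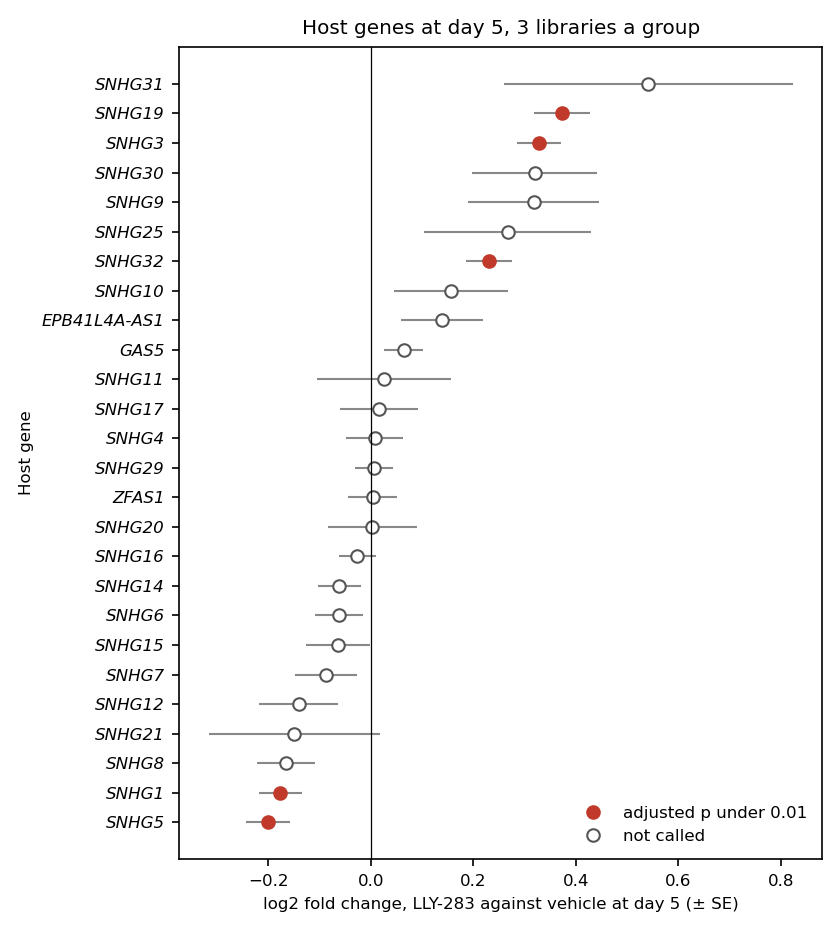
Log2 fold change of LLY-283 against vehicle at day 5 (x axis, ± SE, 3 libraries a group) for the 26 tested host genes (y axis), with filled points at an adjusted p under 0.01. The filled points are SNHG19, SNHG3 and SNHG32 on the right and SNHG1 and SNHG5 on the left, while SNHG31, the point farthest right, is open and has the widest error among the higher genes.

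SNHG3 shares exons on the same strand with RCC1, the nuclear exchange factor of the GTPase Ran, and reads of the shared exons cannot be given to 1 of them with certainty, so the counts of both are uncertain. RCC1 measured 138.8, 133.3 and 129.9 CPM in vehicle and 95.6, 98.9 and 97.02 CPM in LLY-283 at day 5, the direction opposite to SNHG3 (-0.44 ± 0.04 (SE, adjusted p = 1.34e-09)). At day 0 it measured 120.4, 131.0 and 131.1 CPM in vehicle and 135.1, 128.7 and 128.5 CPM in LLY-283, and its treatment groups overlapped. When the counts of SNHG3 and RCC1 were added before the fit, the difference at day 5 was -0.06 on the log2 scale (adjusted p = 0.235). This sum follows from opposite differences of similar size, and it cannot tell reads assigned to the wrong gene from a change in both genes. SNHG3 fell from day 0 to day 1, whereas RCC1 was not called there and measured 138.3 and 113.5 CPM at day 1 (-0.03 ± 0.06 (SE, adjusted p = 0.754)). Exons of SNHG5 and SNHG32, also called at day 5, overlap other genes on the same strand as well. These are ENSG00000271793 and PKMP3 for SNHG5 and ENSG00000285565 for SNHG32, and their part in the counts was not tested. SNHG14 and SNHG4, called lower at day 5 than at day 0 in both arms, overlap SNRPN and MATR3 in the same way. From day 0 to day 5 SNRPN was called higher, opposite to SNHG14 (log2 0.38 ± 0.04 (SE) in vehicle, 0.27 ± 0.04 in LLY-283). MATR3 was called lower in LLY-283 (-0.29 ± 0.03) and not in vehicle (-0.05 ± 0.04). The part of both in the counts was not tested. PRMT5 itself, the target of the compound, was -0.11 ± 0.04 (adjusted p = 0.0307) at day 5.

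**Figure D4:**
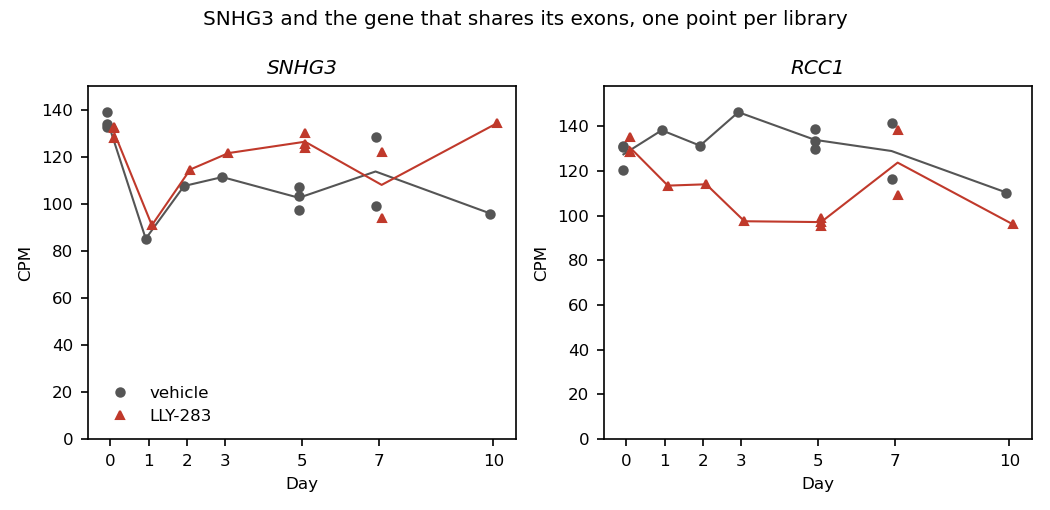
CPM (linear axes from 0) of SNHG3 on the left and RCC1 on the right against day, 1 point per library, circles for vehicle, triangles for LLY-283, lines through group means. At day 5 the LLY-283 libraries are above vehicle for SNHG3 and below it for RCC1, and at day 1 SNHG3 alone is far below day 0.

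GAS5, ZFAS1 and EPB41L4A-AS1 did not pass the test between treatment groups at day 5, nor did SNHG29 and SNHG16, which are among the 5 highest hosts. For GAS5 the difference was 0.06 ± 0.04 (SE, adjusted p = 0.197), with overlapping groups. ZFAS1, the host of SNORD12, SNORD12B and SNORD12C, measured 86.1, 88.8 and 85.8 CPM in vehicle and 94.7, 81.7 and 80.9 CPM in LLY-283 (0.00 ± 0.05 (SE, adjusted p = 0.964)). EPB41L4A-AS1 was slightly higher in all 3 LLY-283 libraries, at 0.14 ± 0.08 (SE, adjusted p = 0.18), and was not called. SNHG29, the host of SNORD49A, SNORD49B and SNORD65, measured 203.1, 203.2 and 210.6 CPM and 213.8, 199.8 and 195.4 CPM (0.01 ± 0.04 (SE, adjusted p = 0.917)). SNHG16, the host of SNORD1A, SNORD1B and SNORD1C, measured 205.6, 203.2 and 211.7 CPM and 210.8, 194.2 and 194.2 CPM (-0.03 ± 0.04 (SE, adjusted p = 0.623)). Day 0 values of SNHG29 were 227.5, 234.0 and 245.6 CPM in vehicle and 254.6, 241.4 and 241.3 CPM in LLY-283, and those of SNHG16 were 209.0, 210.0 and 213.8 and 212.3, 206.9 and 208.0 CPM, so in vehicle SNHG16 shifted least of the 5 highest hosts over 5 days (-0.04 ± 0.04). The 21 hosts that were not called at day 5 ran from -0.17 for SNHG8 to 0.54 for SNHG31, whose values of 2.11, 1.12 and 1.03 CPM and 1.75, 2.05 and 2.35 CPM were too low and scattered to call.

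With 0 days of treatment, 0 of 26 hosts were called by edgeR or DESeq2, against 0.0169% of all genes. Just 1 host had an unadjusted p under 0.05, against 1012 of 17780 genes. That host was SNHG8, at 53.2, 56.7 and 56.8 CPM in vehicle and 65.3, 59.4 and 59.3 CPM in the LLY-283 arm, values that did not overlap (0.13 ± 0.05 (SE, adjusted p = 0.789)). SNHG3 did not overlap at day 0 either, being slightly lower in the LLY-283 arm (-0.06 ± 0.03 (SE, adjusted p = 0.871)), the reverse of its order at day 5. The share of all genes with such separation at day 0 is not given here. The treatment difference at day 5 was therefore also tested against that at day 0. Of 26 hosts, 1 had a higher and 2 a lower difference at day 5, against 14.9% of all genes called (6.78% higher and 8.15% lower). SNHG3 differed by 0.39 ± 0.06 (SE, adjusted p = 7.10e-06), SNHG8 by -0.29 ± 0.07 (SE, adjusted p = 0.00402) and SNHG5 by -0.23 ± 0.06 (SE, adjusted p = 0.00577). At day 5 SNHG8 measured 40.1, 41.2 and 43.6 CPM in vehicle and 38.2, 36.97 and 34.3 CPM in LLY-283, the reverse of its order at day 0, and it fell in both arms (-0.43 ± 0.05 (SE, adjusted p = 5.42e-08) in vehicle and -0.73 ± 0.05 (SE, adjusted p = 1.29e-11) in LLY-283). The call of SNHG5 was lost in 7 of the 12 fits that left out 1 library, namely vehicle day 0 replicate 1, LLY-283 day 0 replicates 1 and 3, vehicle day 5 replicates 1 and 2, and LLY-283 day 5 replicates 2 and 3 (highest adjusted p = 0.0296), and that of SNHG8 was lost without LLY-283 day 0 replicate 1, vehicle day 5 replicate 3 or LLY-283 day 5 replicate 3 (highest adjusted p = 0.0198). With all 24 libraries in a shared fit, all 3 calls were lost. SNHG19 (0.0263), SNHG32 (0.0359) and SNHG1 (0.0362) had adjusted p-values that missed the threshold of 0.01 in this test.

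Over days 1 to 3, with 1 library per arm and day, 0 of 27 hosts were called between treatment groups by edgeR or DESeq2 (0.0104% of all genes). An unadjusted p under 0.05 was found for 3 of the 27 hosts, against 3016 of 19179 genes. Of the hosts, SNHG5 had the smallest p. It measured 112.2, 113.1 and 106.2 CPM in vehicle and 101.0, 103.3 and 97.8 CPM in LLY-283 at days 1, 2 and 3 (-0.13 ± 0.05 (SE, adjusted p = 0.268)). LLY-283 was below vehicle on each of the 3 days, as it was at day 5. SNHG3 measured 85.2, 107.6 and 111.4 CPM in vehicle and 90.9, 114.6 and 121.6 CPM in LLY-283 (0.11 ± 0.05 (SE, adjusted p = 0.314)), and its day 2 library was above its day 1 library in both arms.

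Day 7 is given by the labels of the libraries, although those of repeat 2 lay toward the other arm. Of 26 hosts, 0 were called between arms at day 7 by edgeR or DESeq2 (0% of all genes by edgeR). At an unadjusted p under 0.05 there were 0 hosts, against 236 of 16826 genes. Between day 7 and day 5, 0 hosts were called (0.0166% of all genes). There 2 hosts had an unadjusted p under 0.05, against 2400 of 18071 genes. SNHG19 measured 40.1 and 65.5 CPM in the vehicle repeats 1 and 2 and 51.9 and 40.9 CPM in those of LLY-283. SNHG3 measured 98.9 and 128.6 CPM and 122.2 and 93.95 CPM in the same order. In both genes repeat 1 kept the order of day 5 and repeat 2 had the reverse. With the day 7 libraries of either repeat left out, 0 hosts were called between day 7 and day 5.

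The single day 10 libraries showed some hosts near their day 0 level and others not, with no replicate to test it. In each arm 19 of 26 hosts were below day 0 and 7 above. Their median log2 change was -0.24 in vehicle and -0.12 in LLY-283, against -0.03 and -0.01 over all genes. GAS5 measured 309.4 CPM in vehicle and 280.9 CPM in LLY-283, SNHG29 260.3 and 256.7 CPM, and SNHG32 118.0 and 113.7 CPM. In vehicle these values lie within the day 0 range or above it. In LLY-283 SNHG29 was above that range, whereas GAS5 and SNHG32 were below it, at 96% and 90.7% of their day 0 means. By contrast SNHG17 measured 15.5 and 18.1 CPM, SNHG12 18.1 and 19.6 CPM, SNHG1 129.1 and 128.5 CPM and EPB41L4A-AS1 19.4 and 18.9 CPM, all below every day 0 library. SNHG3 stood at 95.9 CPM in vehicle and 134.2 CPM in LLY-283, and SNHG19 at 34.99 and 58.4 CPM, the same order between arms as at day 5. SNHG5, at 118.0 and 105.8 CPM, kept its order as well, whereas that of SNHG32 was reversed and SNHG1 was nearly level.

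Summed over the 31 genes, the hosts made up 0.199% to 0.203% of all counts at day 0 and 0.161% to 0.164% at day 1. At day 5 the share was 0.156% to 0.163% in vehicle and 0.163% to 0.167% in LLY-283, and at day 10 it was 0.180% to 0.182%. The summed CPM in vehicle at day 5 was 83.6% of that at day 0, and LLY-283 at day 5 was 99.4% of vehicle at day 5, or 103% with scaling by library size alone. The sum was lower at day 1 than at day 0 and nearly level between arms at day 5, with a direction between arms that depends on the scaling.

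**Figure D5:**
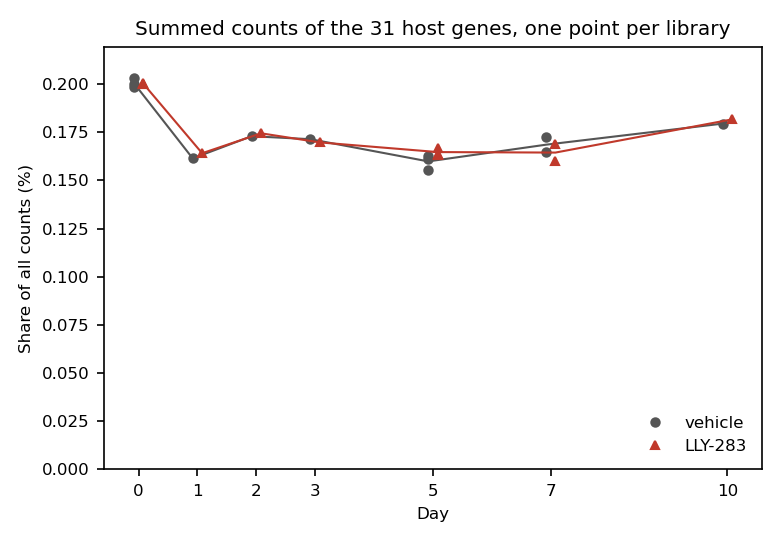
Share of all counts (percent, linear axis from 0) held by the 31 host genes against day, 1 point per library, circles for vehicle, triangles for LLY-283, lines through group means. All 6 libraries of day 0 lie near 0.2%, all later libraries lie below them, and the 2 of day 10 are the nearest.

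Grouped by their guests, the hosts of H/ACA snoRNAs had the lowest median against day 0. In vehicle between day 0 and day 5, 8 of 10 H/ACA hosts were lower and 0 higher (median -0.52 on the log2 scale), 6 of 10 C/D hosts tested were lower and 2 higher (median -0.22), 2 of 3 hosts of both kinds were lower, and 0 of 3 scaRNA hosts were called. In LLY-283 the numbers were 7 of 10 lower (median -0.54), 6 of 10 lower and 1 higher (median -0.23), 2 of 3 lower and 0 of 3. Between treatment groups at day 5, the called hosts were SNHG19, SNHG32, SNHG5 and SNHG1 among 10 C/D hosts and SNHG3 among 10 H/ACA hosts. Over all genes, 16.7% were lower and 22.2% higher in vehicle, and 19.5% lower and 22.9% higher in LLY-283. Between treatment groups at day 5, 26.1% of all genes were called. The difference between guest classes, which hold few genes each, was not tested. A TOP-like start of at least 5 bases at the annotated start was present in 6 tested hosts. Of these, 2 were higher and 4 lower at day 5 than at day 0 in vehicle. Among the 16 tested hosts without one, 0 were higher and 10 lower. In LLY-283 the counts were 1 higher and 4 lower of 6, and 0 higher and 9 lower of 16. At day 1 they were 0 higher and 4 lower of 6, and 0 higher and 10 lower of 17, against 13.4% higher and 7.8% lower over all genes. GAS5, SNHG3 and SNHG14, whose RefSeq starts lie upstream of the GENCODE gene, count among those without one.

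The other lists hold genes that act on snoRNAs, carry them or share a feature with the hosts. No list was tested against the hosts, and each count is to be read against the 26.1% of all genes called at day 5 (12% higher and 14.1% lower) and the 21.2% at day 1 (13.4% higher and 7.8% lower). Of 19 proteins of the snoRNA particles and their assembly, 14 were lower and 0 higher in LLY-283 at day 5 (73.7% called, median log2 fold change -0.21, against 0.02 over all genes). NOP56, a core protein of C/D particles, measured 440.6 ± 6.4 CPM with vehicle and 346.2 ± 5.68 CPM with LLY-283 (SD over 3 libraries), a log2 fold change of -0.32 (adjusted p = 2.18e-08). NOP58, its partner, measured 193.7 ± 7.96 CPM with vehicle and 149.3 ± 5.11 CPM with LLY-283 (SD over 3 libraries), with -0.35 (adjusted p = 3.62e-08). NHP2, a core protein of H/ACA particles, measured 120.0 ± 2.74 CPM with vehicle and 92.1 ± 5.52 CPM with LLY-283 (SD over 3 libraries), with -0.36 (adjusted p = 1.03e-07). From day 0 to day 1, when most hosts fell, 3 of the 19 were lower and 0 higher (15.8%).

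Among 238 tested protein-coding genes with a snoRNA inside, of 274 in all, 26 were higher and 68 lower in LLY-283 at day 5 (39.5% called, median -0.05). The 3 of smallest p were ODC1, the first enzyme of polyamine synthesis, at -0.52 (adjusted p = 4.12e-11), POLA1, the catalytic subunit of DNA polymerase alpha, at -0.57 (adjusted p = 5.05e-11), and GNL3, a nucleolar GTPase, at -0.46 (adjusted p = 7.98e-11). Between day 0 and day 1, 52 of 250 such genes were higher and 24 lower (30.4%), with a median of 0.04 against -0.24 for the noncoding hosts of the set. Of 9 tested noncoding snoRNA hosts outside the set, 0 were called at day 5 by edgeR, the smallest p being that of ENSG00000285877 at 0.69 (adjusted p = 0.0694), followed by RAB33B-AS1 at 0.32 (adjusted p = 0.208) and LINC02109 at -0.36 (adjusted p = 0.686). Other long noncoding genes without a snoRNA, 2167 tested, had 141 higher and 17 lower at day 5 (7.29%, median 0.18) and a median of -0.18 at day 1 over 3695 tested, of which 43 were higher and 129 lower (4.65%).

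Of 79 ribosomal protein genes, whose transcripts have TOP starts as those of several hosts do, 30 were lower and 0 higher in LLY-283 at day 5 (38% called, median -0.09), led by RPS12 at -0.27 (adjusted p = 1.58e-06), RPLP2 at -0.27 (adjusted p = 2.29e-06) and RPL35 at -0.25 (adjusted p = 4.26e-06). From day 0 to day 1, 1 of the 79 was higher and 1 lower (2.53%). Of 14 other translation genes with TOP starts, 2 were higher and 2 lower at day 5 (28.6%), close to the share over all genes, with EIF4B, a helicase cofactor, at 0.16 (adjusted p = 0.00206), EEF1B2, an elongation factor subunit, at -0.14 (adjusted p = 0.00476), and PABPC1, the cytoplasmic poly(A)-binding protein, at -0.13 (adjusted p = 0.00788). Day 1 had 3 of the 14 higher and 1 lower (28.6%). Of 15 factors of nonsense-mediated decay, 0 were higher and 4 lower at day 5 (26.7%), again close to the share over all genes, among them EIF4A3 at -0.24 (adjusted p = 1.02e-05), UPF2 at -0.22 (adjusted p = 0.000909) and SMG9 at -0.22 (adjusted p = 0.00353), and 2 were higher and 0 lower at day 1 (13.3%).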

How the data were processed

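Poly(A) RNA of HSJD-DIPG-007 cells was sequenced as paired reads of 41 bp. The authors trimmed the reads and pseudoaligned them to the human transcriptome (hg38) with kallisto, whose version and annotation are not given in the sources used here. The deposited values are estimated counts per gene, as whole numbers that were not normalised. They were not rounded further.

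Gene symbols, positions, the snoRNA sequences shown and snoRNA hosts outside the set were taken from GENCODE release 44 (GRCh38, the same build) for 58207 of 58676 rows, and the guests of the set, by position, and start windows from RefSeq GRCh38.p14. Counts were tested with edgeR 4.0.16 in R 4.3.3 (TMM normalisation, its filter on low counts for each arm and day, and quasi-likelihood fits with the robust option). Benjamini-Hochberg adjustment ran over all genes tested, and a call is an adjusted p under 0.01. CPM are counts scaled to a common library size with TMM factors over the 24 libraries, and those of cell type markers use the library total alone. DESeq2 1.42.0 was an alternative, as were its size factors, scaling by library size alone, leaving out the filter or raising it to 10 counts in each library, an adjusted p under 0.05, all 24 libraries in a shared fit, a block for the repeat number, and leaving out each library in turn. Tests were checked on simulated counts whose planted changes were larger than any called here between treatment groups. Recovery of smaller changes was not checked.

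The members, gene lists and comparisons were chosen with earlier results of these data known. Hosts were named with a value in every library where they were called (at most 6 per direction and comparison, by smallest p), where they were among the 5 highest by mean CPM, and for GAS5, ZFAS1 and EPB41L4A-AS1. From each gene list the 3 genes of smallest p at day 5 were named. SNHG8, SNHG11, SNHG12, SNHG17, SNHG30 and SNHG31 were also given values where a count or contrast turned on them, after their values were seen. The same holds for RCC1, PRMT5, SNRPN and MATR3. Same-numbered libraries did not deviate together at days 0 and 5 (correlations of -0.09 to 0.10), so numbers were not used as pairs. At day 7 the correlation was -0.22 for the same numbers and 0.22 for crossed numbers. With 2 libraries a group these values are opposite by construction.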

Additional observations from a re-analysis of the deposited data

Results flagged for a closer look

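The treatment difference changed between day 0 and day 5 in 3 of 26 hosts (11.5%), by a test of that difference. Of all genes, 14.9% were called in the same test. For SNHG3 the change from day 0 to day 5 in LLY-283 less that in vehicle was 0.39 ± 0.06 (SE, adjusted p = 7.10e-06) on the log2 scale, and the gene was at 85.2 and 90.9 CPM in the day 1 libraries, where the arms lay close together. For SNHG8 it was -0.29 ± 0.07 (SE, adjusted p = 0.00402), with the groups reversed in order between the days, as they were for SNHG3. For SNHG5 it was -0.23 ± 0.06 (SE, adjusted p = 0.00577), and the gene was called higher at day 5 than at day 0 in vehicle and was not called in LLY-283. Of the 12 fits that left out 1 library, 7 lost the call of SNHG5 and 3 that of SNHG8. SNHG3 shares exons with RCC1, which changed the other way by -0.46 ± 0.05 (SE, adjusted p = 5.10e-07). No group held more than 3 libraries, and single libraries were not tested for standing apart from their group. Libraries of a group differed by a chi-square per gene of 11.2 and 13.4 at day 7, against 1.65 to 3.79 within the groups of days 0 and 5.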

How the results depend on the processing

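With all 24 libraries in a shared fit, which takes its spread partly from the day 7 libraries that stand apart, 0 hosts were called between arms at day 5 in place of 5, and 0 in the test of that difference against day 0 in place of 3 (over all genes, 2036 in place of 4304 and 40 in place of 2742). With the 20 libraries of other days, a fit chosen after seeing the data, the numbers were again 5 and 3. The difference against day 0 gave 6 hosts at an adjusted p under 0.05, and 1 to 3 when a library was left out. It gave 1 without LLY-283 day 0 replicate 1 or LLY-283 day 5 replicate 3, SNHG3 alone. For each of the other 7 counts, every alternative run stayed within 1.5 times. With the replicate block, 5 hosts were called at day 5, 18 and 16 between day 0 and day 5 in vehicle and LLY-283, and 2 in the difference against day 0, where SNHG5 was lost (adjusted p = 0.0124). The block could not be fitted for days 1 to 3 or day 1. The crossed pairing at day 7 called 0 hosts and 36 genes in all. Of 471 values of 31 named results under alternatives, 448 kept direction and call, 22 lost the call and 1 reversed, which was SNHG3 at day 5 with the counts of RCC1 added (-0.056). The causes were not tested. Depth limits the hosts under 10 CPM, and day 1, 2, 3 and 10 values rest on 1 library per arm.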

Other observations

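The count table also lists 552 snoRNA and scaRNA rows. Of these, 334 had a count in any library and 10 a mean of at least 10 counts, and their sum was 338 to 894 counts per library. By GENCODE positions, which place no snoRNA inside GAS5 and so leave out its RefSeq guests, 139 of the rows lay inside the host genes. Of these, 68 had a count, with a sum of 81 to 284 counts per library. The highest were SNORD104 in SNHG25, with 34 to 91 counts, and SNORA73B in SNHG3, with 10 to 55 counts. The libraries select poly(A) RNA, so these rows were not compared between groups.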
